A study of Bos taurus with 15 samples.

Results

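Chief cells of the newborn (NB) abomasum were taken as the barcodes of 1 single-cell library in which *LYZ2* made up at least 10% of all unique molecular identifiers (UMIs), the tags that mark single captured RNA molecules. A barcode also had to hold 500 to 4000 detected genes and fewer than 50000 UMIs, with *ATP4A* under 0.3% and *TFF1* under 0.2% of its UMIs. By this rule, 3269 of the 14198 barcodes of the library were chief cells, a share of 23.0% (95% exact binomial interval 22.3% to 23.7%), out of 172405 barcodes in all libraries. They held 54192928 UMIs, 52.7% of the 102878281 UMIs of the library.

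The study profiled digestive tissues of NB and adult (AD) Holstein cattle with 10x Genomics scRNA-seq, and 15 of its libraries were analyzed here, 11 NB and 4 AD, with 1 library for each tissue and stage. The library totals ran from 17707625 to 129458578 UMIs. The chief cells were set against the 10929 other barcodes of the same library. Both groups thus shared the tissue, the source calf or calves, the removal of the muscle layers, and the treatment with EDTA and trypsin. They also shared the digestion with collagenases, hyaluronidase, dispase, and DNase I. The study used several NB calves, and the calf or calves behind the abomasum library are not given in the sources used here. With 1 library there is no replicate error and no test. All intervals below cover counting error only, and the SD between animals is unknown. An AD abomasum was not analyzed here.

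The abomasum is the glandular stomach of ruminants. Chief cells lie at the base of its glands, where they store digestive proenzymes in granules and release them on nervous and hormonal signals. In the suckling calf, they secrete chymosin (*CYM*), the protease that clots milk, beside pepsinogen A (*PGA5*). Ruminants also recruited lysozymes, enzymes that break bacterial cell walls, as stomach enzymes, and they are encoded by a cluster of duplicated genes that includes *LYZ1*, *LYZ2*, and *LYZ3*. Parietal cells, which secrete acid through the proton pump subunits *ATP4A* and *ATP4B*, and mucous cells, which secrete trefoil peptides such as *TFF1* and *TFF2*, share the glands with them.

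The members were chosen by their measured *LYZ2*, *ATP4A*, and *TFF1* shares, so the values of these genes are a description. *LYZ2* ranged from 10.0% to 48.7% of UMIs across the chief cells, with a median of 22.0%. Among barcodes that met every other condition, the 90 with 10% to 11% *LYZ2* had a median *CYM* share of 19.8%, a median *PGA5* share of 1.90%, and a median depth of 9870.5 UMIs. The 95 barcodes just outside, with 9% to 10% *LYZ2*, had 18.5% *CYM*, 1.92% *PGA5*, and 9595 UMIs, so the threshold cut through barcodes that were alike in these measures. Of 3303 barcodes inside the limits on genes and UMIs with at least 10% *LYZ2*, 17 were left out for *ATP4A* and 17 for *TFF1*. A further 544 barcodes with at least 10% *LYZ2* lay outside the limits, 526 of them with fewer than 500 genes.

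**Figure D1:**
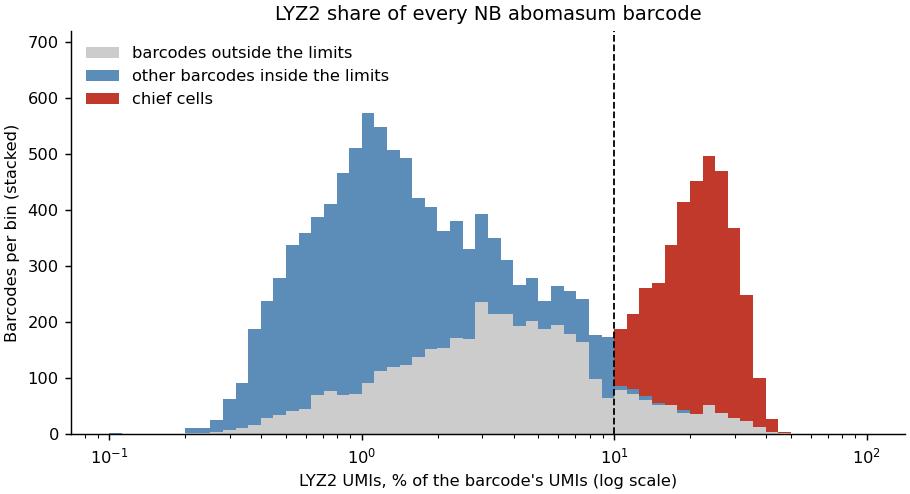
Histogram of the *LYZ2* share of each barcode of the NB abomasum library (x axis, percent of UMIs, log scale; y axis, stacked number of barcodes per bin). Red marks the 3269 chief cells, blue the other barcodes inside the limits on genes and UMIs, and gray those outside; the dashed line is the 10% threshold, and the red bars form a peak of their own at 20% to 30%.

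The label was checked against *CYM* and *PGA5*, the chosen chief cell markers that the rule did not use. Other genes of gastric enzymes or zymogen cells were low or absent, among them *PGC*, *LIPF*, and *BHLHA15*, and are given below. *CYM* made up 29.8% of UMIs in the median chief cell (quartiles 24.4% and 34.2%), and 3229 of 3269 chief cells (98.8%) had at least 10% *CYM*. *PGA5* had a median share of 2.83% (quartiles 1.93% and 4.01%) and was detected in every chief cell. It was also detected in every barcode with *TFF1*, a group defined below, at a median share of 1.65%. *PGA5* exceeded *CYM* in 0 of 3269 chief cells, which allows a share of up to 0.0918% by a floor of 3 counts. *EPCAM*, an epithelial adhesion protein, had a UMI in 92.0% of chief cells. The chief cells were deeper than the rest of the library, with a median of 16051 UMIs (quartiles 12529 and 20079) and 1607 genes, against 3162 UMIs and 992 genes. Mitochondrial genes took a median of 2.86% of their UMIs, against 11.7%, and 103 chief cells (3.15%) reached 10% or more. Part of that gap lies in 4124 barcodes with fewer than 500 genes, where the mitochondrial median was 38.8%. The library shared 18 to 64 barcodes with each of the 14 others, and 5 to 15 of these were chief cells.

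A handful of secreted products filled the chief cell transcriptome. *CYM* (29.7% of all chief cell UMIs), *LYZ2* (23.8%), *LYZ1* (8.36%), *LYZ3* (3.78%), and *PGA5* (3.30%) together took 68.9% of the UMIs, against 11.7% in the other barcodes. These shares count 3' ends of molecules and are not scaled by gene length. In 2902 of the 3269 chief cells (88.8%, interval 87.6% to 89.8%), these 5 genes exceeded 50% of UMIs, and the share ran from 20.0% to 90.6% over single cells. Thinned to 1000 UMIs each, chief cells had a median of 216 genes (quartiles 174 and 267), against 399 in barcodes with *ATP4A*, 524 in barcodes with *TFF1*, and 578 in non-epithelial barcodes, groups that are defined below. Without thinning, the medians were 1607, 1895, 2368, and 1507. The thinning left out 0, 4, 4, and 23 barcodes.

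*CYM* was higher than *LYZ2* alone in most chief cells, but not in all, while *LYZ1*, *LYZ2*, and *LYZ3* together took more of the chief cell UMIs than *CYM*. *CYM* exceeded *LYZ2* in 2568 of 3269 cells (78.6%, interval 77.1% to 80.0%). The *CYM* to *LYZ2* ratio had a median of 1.32 and went from 0.836 at the 10th percentile to 2.11 at the 90th. The *CYM* to *PGA5* ratio was wider, from 4.93 to 22.7 around a median of 10.1. Over cells thinned to 1000 UMIs, *CYM* showed a Spearman correlation of 0.18 with *LYZ2*, 0.07 with *PGA5*, and -0.22 with *LYZ1*, all cells sharing 1 library and each share being part of 1 total. *LYZ2* had 0.43 with *LYZ1* and 0.45 with *LYZ3*. Reads of these close gene copies may be split between them by the counting, which keeps only reads with a unique position, so the single lysozyme levels are uncertain. *LYZ2* also correlated with depth (0.50) and inversely with the mitochondrial share (-0.46). In the shallowest 817 chief cells (1186 to 12525 UMIs), the median *LYZ2* share was 17.0% and that of *CYM* 27.4%. In the deepest 818 (20079 to 49959 UMIs), these were 27.6% and 30.7%, so *LYZ2* moved with depth more than *CYM* did.

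Not every gastric proenzyme or lysozyme was present. *PGC* (pepsinogen C) reached 1.13 CPM (UMIs per 1000000 UMIs of a group) in chief cells and 27.2 CPM in the other barcodes. *LYZ*, another lysozyme gene, was at 3.60 CPM against 38.8 CPM. *LIPF* (gastric lipase) had 0 UMIs in both groups, and *CHIA*, an acidic chitinase, had 0 UMIs in chief cells and 0.555 CPM in the others. *CBLIF*, the intrinsic factor that binds vitamin B12, was at 31.4 CPM in chief cells against 1180 CPM, with its highest level, 6951 CPM, in barcodes with *ATP4A*.

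Because a small set of genes took most UMIs, every other gene had to share the rest, and the outcome of the contrast depended on the scaling. On all UMIs, 16 of 7104 genes with at least 10 CPM in either group were at least 2-fold higher in chief cells (0.225% of genes tested) and 4421 were at least 2-fold lower (62.2%), on the scale of log2(CPM + 5), and the median gene stood at -1.13. Totals were then taken without the 14 genes that exceeded 1% of the UMIs of at least 1 group (*CYM*, *LYZ2*, *LYZ1*, *LYZ3*, *PGA5*, and 9 others such as the mitochondrial *COX3* and *COX1*). On these totals, 238 of 8629 genes were higher (2.76%) and 1583 lower (18.3%), with a median of -0.22. This shifted the median by 0.91. The share of higher genes among all calls went from 0.361% to 13.1%. Leaving out the 5 enzyme genes alone gave 376 higher (4.76% of 7894) and 1144 lower (14.5%), a share of 24.7%. Levels scaled to the UMIs left after removal of the 14 genes are called remaining CPM below. Log2 ratios against the other barcodes are given on both scales where they differ in direction.

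The genes highest in chief cells beside the enzymes were of mixed function. *TMED6*, a member of the p24 family of cargo receptors between endoplasmic reticulum (ER) and Golgi, had 130 CPM against 21.2 CPM (log2 ratio 2.37 on all UMIs and 3.69 on remaining UMIs). It had a UMI in 80.5% of chief cells. At 1000 UMIs per barcode, the share was 12.7%, against 0.789% of non-epithelial barcodes, 2.60% of barcodes with *ATP4A*, and 0.129% of those with *TFF1*. *ARHGDIG* was at 444 CPM against 125 CPM (1.79 and 3.05). *IRX3*, a homeobox transcription factor, was at 74.9 CPM against 18.8 CPM (1.74 and 3.04). The carboxypeptidase M gene, *CPM*, followed with log2 ratios of 1.73 and 3.03. *TMEM45A* (1.34 and 2.61) and *CCNG1*, cyclin G1 (1.02 and 2.27), were the other genes of at least 50 CPM past 2-fold on both scales. All 6 kept a log2 ratio above 0 under each of the 17 alternatives. *PPDPFL*, *MSLN*, *GSTA2*, and *PPP1R1B*, chosen after their values were seen, also passed on all UMIs, with 1.60, 1.49, 1.29, and 1.16 at levels of 20.9 to 44.1 CPM. The 5 enzyme genes, these 10, and 1 gene without a symbol made up the 16.

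The next genes in rank lay below 2-fold on all UMIs and above it only on remaining UMIs. They were *PDGFA*, a growth factor for stromal cells (0.81 and 2.06), *CA9*, a carbonic anhydrase (0.76 and 2.01), *PLEKHB1* (0.64 and 1.89), *TOM1L1* (0.57 and 1.80), *SEC11C* (0.51 and 1.75), *CCPG1*, a receptor of ER autophagy (0.50 and 1.74), *RWDD4* (0.48 and 1.71), *HERPUD1* (0.46 and 1.71), and the chaperone *HSPB8* (0.43 and 1.67). Barcodes with *TFF1* had 453 remaining CPM of *CA9* and 201 of *PDGFA*, beside 715 and 496 in chief cells and 15.5 and 27.8 in non-epithelial barcodes. On all UMIs the order of these 2 epithelial groups turned, with 361 CPM of *CA9* and 160 of *PDGFA* in barcodes with *TFF1*, against 195 and 135 in chief cells. Against barcodes with an *EPCAM* UMI alone, *CA9* (-0.04), *PLEKHB1* (-0.03), and *TOM1L1* (-0.15) fell just below 0 on all UMIs.

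At the other end stood the products of the neighboring cell types. *GHRL*, the hormone ghrelin, was lowest (11.3 CPM against 1715 CPM, log2 ratio -6.72), followed by *ATP4A* (-5.18, used by the rule), *CBLIF* (-5.02), *TFF1* (-5.02, used by the rule), *ATP4B* (-4.90), and *TFF2* (-4.84). *TFF2* was at 161 CPM in chief cells and at 4763 CPM in the others. The cardiac troponin gene *TNNI3* (-4.56), *FABP5* (-4.43), and *SPINK1* (-4.30) were also among the 20 lowest. Of the remaining genes of that set, *PLVAP* (-4.42), *ENG* (-4.12), and *CCL21* (-4.44) are known from vessels. All 20 were also lower on remaining UMIs, from -5.83 to -3.02.

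Genes of the machinery that feeds proteins into the ER had higher medians than the genes at large, and some passed 2-fold on remaining UMIs. Of 22 measured genes for translocation and signal cleavage, 0 were at least 2-fold higher and 4 lower on all UMIs (median -0.42), where 0.225% of all genes tested were higher and 62.2% lower (median -1.13). On remaining UMIs, 5 were higher and 0 lower, 17 stood between, and the median was 0.69, where 2.76% of all genes were higher and 18.3% lower (median -0.22). Without the 5 enzyme genes alone in the totals, 11 of 22 were higher and 0 lower, beside 4.76% and 14.5% of all genes. *SSR4*, a subunit of the translocon-associated complex, was the most abundant, with 1030 CPM against 924 CPM (0.16 and 1.41). *SEC11C*, a catalytic subunit of the signal peptidase (0.51 and 1.75), and *SEC61B*, a subunit of the translocation channel (-0.07 and 1.18), showed the same pattern. *SEC11A*, the alternative catalytic subunit, stayed below 0 on both scales (-1.58 and -0.44). On all UMIs, barcodes with *TFF1* exceeded chief cells for *SSR4* (1417 against 1030 CPM) and *SEC61B* (403 against 262 CPM). On remaining UMIs, chief cells were higher, at 3782 against 1775 for *SSR4* and 962 against 506 for *SEC61B*.

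Chaperones and enzymes of disulfide formation were similar, with 27 measured genes on remaining UMIs, 7 higher and 1 lower (median 0.67), and 0 higher and 5 lower of 24 on all UMIs (median -0.52). All genes tested gave 2.76% higher and 18.3% lower on the first scale and 0.225% and 62.2% on the second. *SIL1*, the exchange factor of the chaperone BiP, had 0.24 and 1.43. *ERP29* had 0.02 and 1.26. *P4HB*, the major protein disulfide isomerase, and the peptidyl-prolyl isomerase *FKBP11* each stood at -0.04 on all UMIs and past 2-fold on remaining UMIs. BiP itself, *HSPA5*, stood at -0.52 and 0.72. The exception on both scales was *AGR2*, a disulfide isomerase of mucus-producing cells, at 308 CPM against 1591 CPM (-2.35 and -1.11). Summed over the group on all UMIs, chief cells had 2683 CPM and barcodes with *ATP4A* 2073 CPM. Non-epithelial barcodes had 4632 CPM, and those with *TFF1* 12524 CPM, of which *AGR2* was 7233 CPM. Barcodes with *TFF1* had more *HSPA5* than chief cells on all UMIs (369 against 168 CPM) and less on remaining UMIs (463 against 618).

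Genes for the disposal of misfolded proteins gave 3 of 13 higher and 0 lower on remaining UMIs (median 0.31), beside 2.76% and 18.3% of all genes, namely *HERPUD1* (1.71), *SEL1L* (1.46), and *DERL3* (1.23). All 3 act in the complex that sends ER proteins to the proteasome. On all UMIs, they were at 0.46, 0.23, and 0.04. On that scale, 0 of 12 genes of the group were higher and 4 lower (median -0.79), beside 0.225% and 62.2% of all genes. Barcodes with *TFF1* had more *DERL3* than chief cells, 143 against 37.1 CPM and 179 against 136 remaining CPM. The listed regulators of the unfolded protein response, a list without *XBP1*, did not stand out from the genes at large. On remaining UMIs, 0 of 11 were past 2-fold in either direction (median -0.18). On all UMIs, 5 were lower (median -0.99), where 62.2% of all genes were lower. *XBP1*, which also acts in this response, was listed with the transcription factors below (0.13 on all UMIs and 1.15 on remaining UMIs). *ATF4* was at -0.79 and 0.44. N-glycosylation had 1 of 15 higher, *ALG5* (0.27 and 1.49), and 1 lower, *MGAT1* (-2.16 and -1.19), with a median of 0.43 on remaining UMIs, and 0 higher and 5 lower on all UMIs (median -0.68).

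In the transport from ER to Golgi, 4 of 23 genes were higher and 0 lower on remaining UMIs (median 0.26), beside 2.76% and 18.3% of all genes. On all UMIs, 0 of 22 were higher and 4 lower (median -0.84), beside 0.225% and 62.2% of all genes (median -1.13). The 4 higher ones were *ARFGAP3* (0.37 and 1.61), *LMAN1*, the cargo receptor ERGIC-53 (-0.06 and 1.14), *TMED2* (-0.10 and 1.14), and *TMED3* (-0.07 and 1.13). Granule and exocytosis genes gave 1 higher and 3 lower of 17 on remaining UMIs (median -0.03), beside 2.76% higher and 18.3% lower of all genes tested, so their lower share was near that of all genes. *MYRIP*, which links granules to myosin, was the higher one (0.04 and 1.01), while *SYTL2* (-2.96 and -2.56) and *SYT7* (-1.71 and -1.73) were among those lower on both scales. *RAB3D*, the small GTPase of zymogen granules, was at -0.61 and 0.50.

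**Figure D2:**
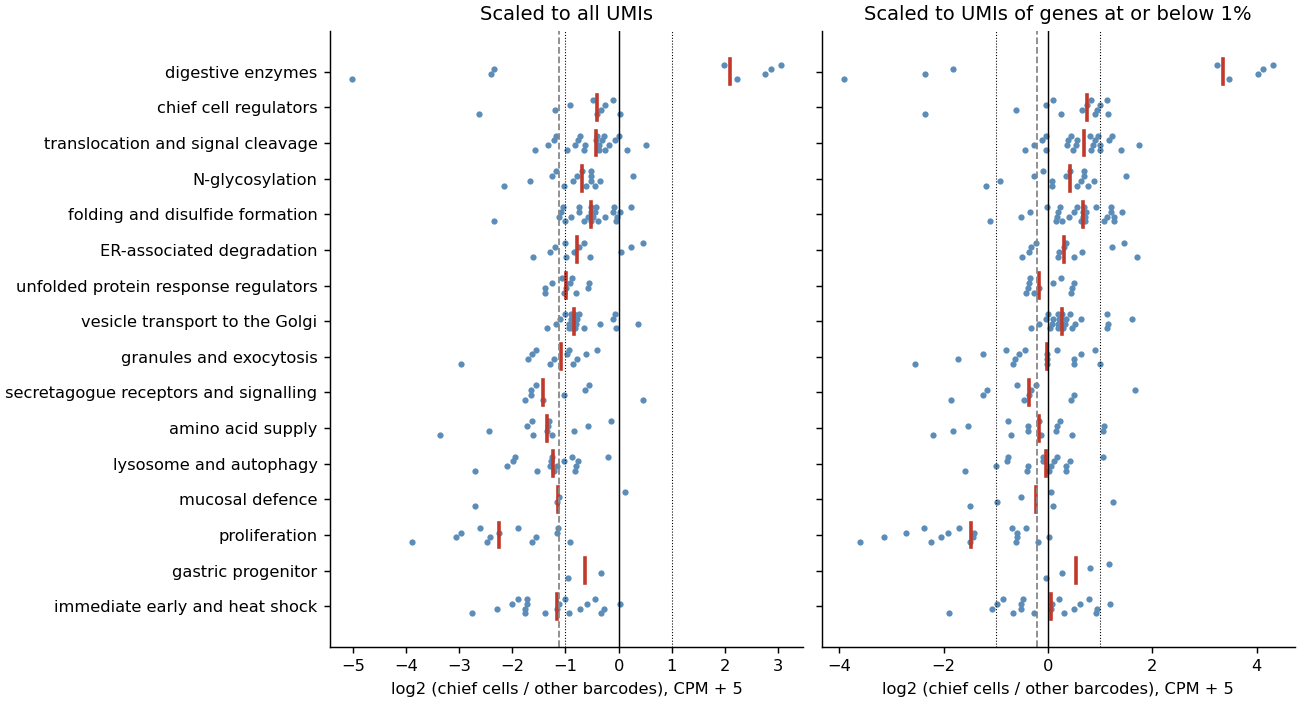
Log2 ratio of chief cells over other barcodes (x axis, CPM + 5) for each measured gene (points) of 16 functional groups (y axis), scaled to all UMIs on the left and to the UMIs of genes at or below 1% on the right. Red bars are the medians of the groups, dotted lines mark 2-fold, and the gray dashed line is the median of all genes tested; the ER groups lie to the right of that line in both panels, and proliferation to its left.

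Among the receptors for secretory signals, *CCKBR*, the gastrin and cholecystokinin receptor, had 48.9 CPM in chief cells against 34.2 CPM (0.46 and 1.68), and it was the 1 gene of 11 at least 2-fold higher on remaining UMIs, with 3 lower, beside 2.76% and 18.3% of all genes. Barcodes with *ATP4A* had 138 remaining CPM of it, those with *TFF1* 51.3, and non-epithelial barcodes 6.62, beside 179 in chief cells. On all UMIs, barcodes with *ATP4A* were higher, at 74.6 CPM. Against barcodes with an *EPCAM* UMI alone, its log2 ratio on all UMIs was -0.08. The muscarinic receptor *CHRM3* and the cholecystokinin receptor *CCKAR* were not measured above 10 CPM in either group. *HRH2*, the histamine receptor of parietal cells (-1.64 and -1.85), *PTGER4* (-1.75 and -1.17), and *PRKACB* (-1.66 and -1.25) were lower on both scales. *KCNQ1*, a potassium channel listed with parietal cells, had 230 remaining CPM in chief cells, 242 in barcodes with *ATP4A*, and 14.6 in non-epithelial barcodes (-0.06 and 1.15 against all others). On all UMIs, it was at 62.7 CPM in chief cells and 131 CPM in barcodes with *ATP4A*.

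Of the transcription factors tied to chief cells or gastric identity, 2 of 13 were higher on remaining UMIs and 1 lower (median 0.74), against 0 higher and 2 lower of 9 on all UMIs. The shares over all genes were 2.76% and 18.3%, and 0.225% and 62.2%. Without the 5 enzyme genes alone in the totals, 6 of 12 were higher and 1 lower, beside 4.76% and 14.5%. *XBP1* (0.13 and 1.15) and *GATA6* (0.03 and 1.13) were the 2 higher on remaining UMIs, *XBP1* at a level of only 8.06 CPM, and *BARX1*, a factor of the stomach mesenchyme, was lower (-2.62 and -2.36). *FOXA2* had -0.25 and 0.95. Barcodes with *ATP4A* had more *FOXA2* than chief cells, 169 against 51.6 CPM and 312 against 189 remaining CPM. Summed over the group, these factors were at 285 CPM in chief cells and 176 CPM in non-epithelial barcodes. The sums were 464 CPM in barcodes with *ATP4A* and 1225 CPM in those with *TFF1*. *BHLHA15* (MIST1), a factor that matures zymogen cells, was at 0.794 CPM with a UMI in 1.25% of chief cells.

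Of 18 proliferation genes measured on remaining UMIs, 0 were higher, 11 lower, and 7 between (median -1.47), where 18.3% of all genes tested were lower. *MKI67* (-2.48 and -2.71) was detected in 0.489% of chief cells, *TOP2A* had -2.96 and -3.14, and 3230 chief cells (98.8%) had no UMI of either. Markers of gastric progenitors were mostly below the filter, with 4 of 15 measured. *ASCL2* had 5.55 CPM (0.21 and 1.16) and *CD44* had -0.34 and 0.82, while *LGR5* was at 0.627 CPM.

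Other groups gave calls in both directions on remaining UMIs, and on all UMIs 9 of 12 genes of amino acid supply, 11 of 16 of lysosome and autophagy, and 12 of 19 immediate early and heat shock genes were lower, beside 62.2% of all genes, so these shares were near that of the genes at large. On remaining UMIs, 2.76% of all genes were higher and 18.3% lower. Amino acid supply had 2 higher and 3 lower of 15 on remaining UMIs (median -0.16), with *GATM*, the first enzyme of creatine synthesis (-0.15 and 1.08), and *SLC1A4* (0.05 and 1.06) higher and *CKB*, which stores energy as creatine phosphate (-3.37 and -2.20), *WARS1* (-2.43 and -1.53), and *SLC7A8* (-1.61 and -1.82) lower. Barcodes with *TFF1* had more *GATM* than chief cells, 631 against 422 remaining CPM. In the lysosome and autophagy group, *GABARAP* was higher (-0.19 and 1.06) and the protease *CTSZ* lower (-2.70 and -1.58), with a median of -0.03. In mucosal defence, *LTF* (lactoferrin) was higher on remaining UMIs (0.12 and 1.24, 15.9 CPM) and *CST3* lower (-2.69 and -1.49). Immediate early and heat shock genes gave *MYC* higher on remaining UMIs (0.02 on all UMIs) and *KLF4* (-2.76 and -1.89) and *DUSP1* (-2.28 and -1.08) lower of 19, with a median of 0.05. *JUN* was abundant, at 1058 CPM (-0.32 and 0.93). All 13 mitochondrial genes were lower on all UMIs (median -2.46) and 11 on remaining UMIs, where 62.2% and 18.3% of all genes were lower. Their summed level was 32392 CPM in chief cells and 343716 CPM in barcodes with *ATP4A*. It was 102097 CPM in barcodes with *TFF1* and 71028.5 CPM in non-epithelial barcodes. The other barcodes also held those with fewer than 500 genes (mitochondrial median 38.8%). These sums were not compared between the groups on remaining UMIs.

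*CYM* and *LYZ2* had UMIs in all barcodes of the library, so 3 other groups were set beside the chief cells. These were barcodes with at least 0.3% *ATP4A* (811), those with at least 0.2% *TFF1* and less *ATP4A* than that (781), and non-epithelial barcodes (2937). The non-epithelial barcodes had a UMI of *PTPRC*, *COL1A2*, or *PECAM1*, had no UMI of *EPCAM*, and were in neither of the other groups. All 3 groups lay inside the limits on genes and UMIs and were limited to less than 10% *LYZ2*. Their *LYZ2* levels and ratios to *LYZ2* are thus shaped by that choice and are a description. *LYZ2* was at 1.16% of UMIs in non-epithelial barcodes, 0.860% with *ATP4A*, and 0.824% with *TFF1*, against 23.8% in chief cells. The ratio of *LYZ1* to *LYZ2* was close in all of them, at 0.352 in chief cells, 0.333 in non-epithelial barcodes, 0.365 with *ATP4A*, and 0.393 with *TFF1*. The ratio of *CYM* to *LYZ2* was 1.25 in chief cells and 1.33 in non-epithelial barcodes, but 7.22 with *ATP4A* and 5.46 with *TFF1*. *CYM* itself took 6.21% of UMIs with *ATP4A* and 4.50% with *TFF1*, against 1.55% in non-epithelial barcodes. *PGA5* stood apart again. Its ratio to *LYZ2* was 0.139 in chief cells, 0.138 in non-epithelial barcodes, and 0.259 with *ATP4A*, but 2.31 with *TFF1*, where it took 1.91% of UMIs. Within a library, free RNA of 1 source keeps its genes in 1 ratio. The ratios of chief cells and non-epithelial barcodes lay close together for all 3 genes. Barcodes with *ATP4A* or *TFF1* lay close to them for *LYZ1* but not for *CYM*. For *PGA5*, barcodes with *TFF1* lay furthest off. The part of free RNA in these levels was not tested.

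**Figure D3:**
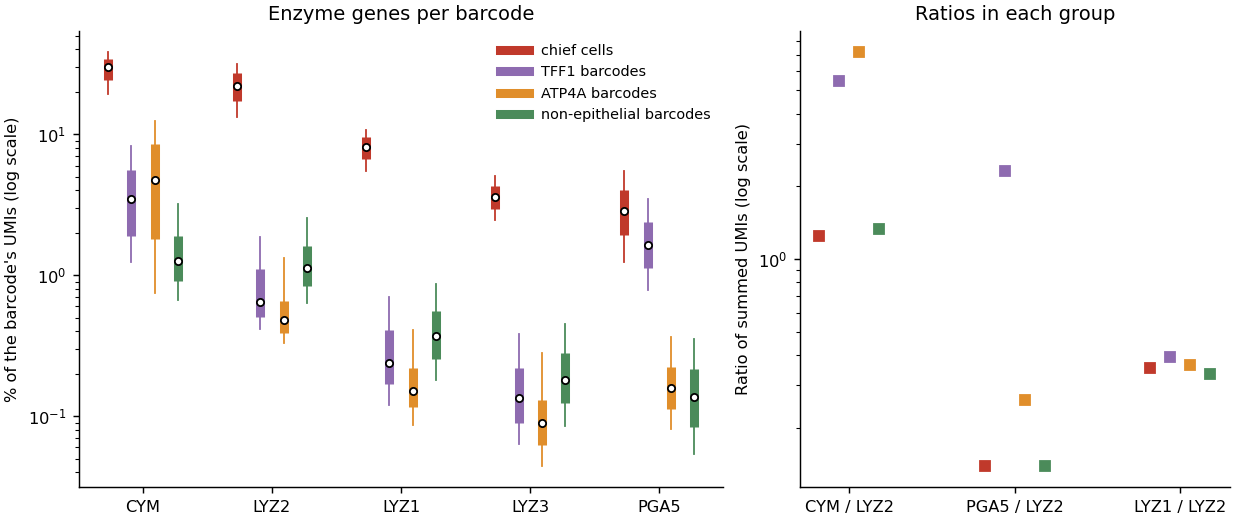
Left, share of each barcode's UMIs (y axis, log scale) for 5 enzyme genes in chief cells (n = 3269), barcodes with *TFF1* (781), barcodes with *ATP4A* (811), and non-epithelial barcodes (2937); points are medians, thick bars quartiles, thin bars the 10th to 90th percentiles. Right, ratios of summed UMIs (log scale), where *LYZ2* was under 10% by choice in all groups but the chief cells. The *CYM* to *LYZ2* ratio is 7.22 with *ATP4A* and 5.46 with *TFF1* beside 1.25 in chief cells and 1.33 in non-epithelial barcodes.

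Within the chief cells, several genes changed along the *LYZ2* share, the measure that the rule used. Between chief cells with 10% to 15% *LYZ2* (537) and those with at least 30% (491), *CLCA1*, a protein secreted with mucus, went from 1597 to 144 remaining CPM. *AGR2* went from 1922 to 494, and *TFF2* from 1493 to 301. These 3 fell on all UMIs too, *CLCA1* from 708 to 23.7 CPM, *AGR2* from 852 to 81.3, and *TFF2* from 662 to 49.6. *TMED6* went from 258 to 741 remaining CPM and *ARHGDIG* from 923 to 2706, but on all UMIs they were nearly level, at 114 and 122 CPM and at 409 and 445 CPM. *IRX3* (172 to 389) and *HSPA5* (426 to 899) rose on remaining CPM and fell on all UMIs, from 76.4 to 64.0 CPM and from 189 to 148 CPM. *SSR4* (3683 and 3651) and *EPCAM* (698 and 862) moved little on remaining CPM and fell on all UMIs, from 1632 to 601 CPM and from 309 to 142 CPM. On remaining UMIs, *AGR2* and *CLCA1* were highest just outside the rule, where the 424 barcodes with 5% to 10% *LYZ2* that met its other conditions had 3057 remaining CPM of *AGR2* and 2576 of *CLCA1*, with *CYM* at 17.4% of their UMIs. *TFF2* was highest further out, at 4325 remaining CPM in the 1028 barcodes with 2% to 5% *LYZ2*. Depth moved along with these values, from a median of 11982 UMIs at 10% to 15% *LYZ2* to 21167 UMIs at 30% or more, and its part in them was not tested.

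**Figure D4:**
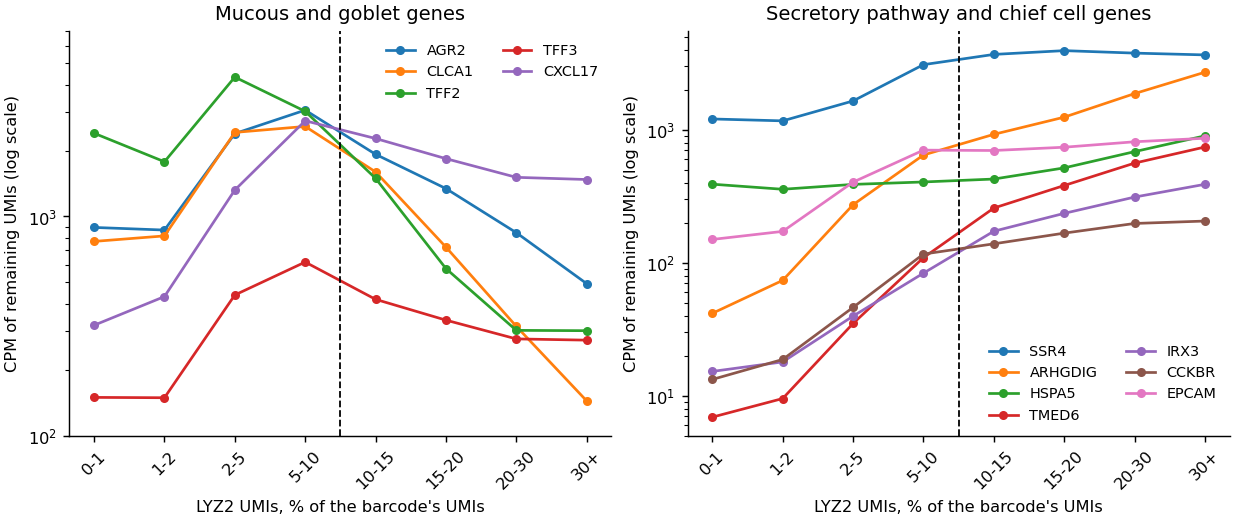
Gene levels (y axis, CPM of remaining UMIs, log scale) in barcodes inside the limits that met the *ATP4A* and *TFF1* conditions, binned by *LYZ2* share (x axis, percent of UMIs); right of the dashed line are chief cells. *AGR2* and *CLCA1* peak at 5% to 10% and fall to 494 and 144 at 30% or more, while *TMED6* rises to 741 on this scale. On all UMIs, *TMED6* is nearly level only within the chief cells, at 114 to 137 CPM, and is at 5.91 CPM below 1% *LYZ2*.

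Clustering of the chief cells without *LYZ2*, *ATP4A*, and *TFF1* gave 8 clusters, which are described by number and leading genes. Cluster 1 (1104 cells, 33.8%) was led by small margins on all UMIs, with *CPM* at 104 CPM against 81.4 CPM in the other chief cells, *TMED6*, *IRX3*, *PPDPFL*, and *CCNG1*. On remaining UMIs, cluster 3 exceeded cluster 1 for *CPM* (466 against 398), *TMED6* (735 against 572), *IRX3* (391 against 329), and *CCNG1* (1332 against 1291). Cluster 2 (836 cells, 25.6%) had the lowest *LYZ2* share of all 8, with a median of 16.8%, and was led by *CLCA1* (504 CPM against 74.3 CPM), *MAL*, *AGR2*, the immediate early gene *IER2*, and *TFF3*. Its summed enteroendocrine markers were at 191 remaining CPM, the highest of the clusters, and *SST*, the hormone somatostatin, had a UMI in 0.398% of all chief cells. Cluster 3 (740 cells, 22.6%) had the highest *LYZ2* share, 28.7%, with the 5 enzyme genes at 80.0% of UMIs and a median of 19871 UMIs. Its leading genes were *LYZ2*, the ER stress protein *MANF*, *PGA5*, the ER chaperone *HSP90B1*, and *CYM*. *HSPA5* reached 1089 remaining CPM in cluster 3, against 533 in cluster 1 and 462 in cluster 2. On all UMIs it was at 185 CPM in cluster 3, 139 CPM in cluster 1, and 179 CPM in cluster 2, and at 192 to 289 CPM in clusters 5 to 8.

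The other 5 clusters were led by genes of other cells. Cluster 4 (276 cells, 8.44%) was led by *ATP4A* (262 CPM against 39.3 CPM), *CBLIF*, *ATP4B*, and the mitochondrial *ND1* and *ND2*, with a median of 1019 genes and 7.45% mitochondrial UMIs. Cluster 5 (148 cells) was led by *PLVAP*, *CCL14*, *CXCL3*, *VWF*, and *ENG*, cluster 6 (102) by *COL3A1*, *DCN*, *MGP*, *ACTA2*, and *COL1A2*, cluster 7 (42) by *C1QA*, *C1QC*, *APOE*, *BOLA-DRA*, and *BLA-DQB*, and cluster 8 (21) by *CCL21*, *MMRN1*, *LYVE1*, *PTN*, and *CAVIN2*. Cluster 5 also had the highest summed mucous neck markers of the clusters, 3357 remaining CPM beside 683 in cluster 2. Clusters 5 to 8 held 313 chief cells, 9.57% (interval 8.59% to 10.6%), with a median of 17.0% to 20.7% *LYZ2* and 24.0% to 26.4% *CYM*, beside 2216 to 2411.5 genes. The highest doublet scores of the library, 801 barcodes, included 61.5%, 52.0%, 38.1%, and 61.9% of the cells of clusters 5, 6, 7, and 8, against 0.811% to 3.47% of those in clusters 1 to 3 and 8.33% in cluster 4.

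**Figure D5:**
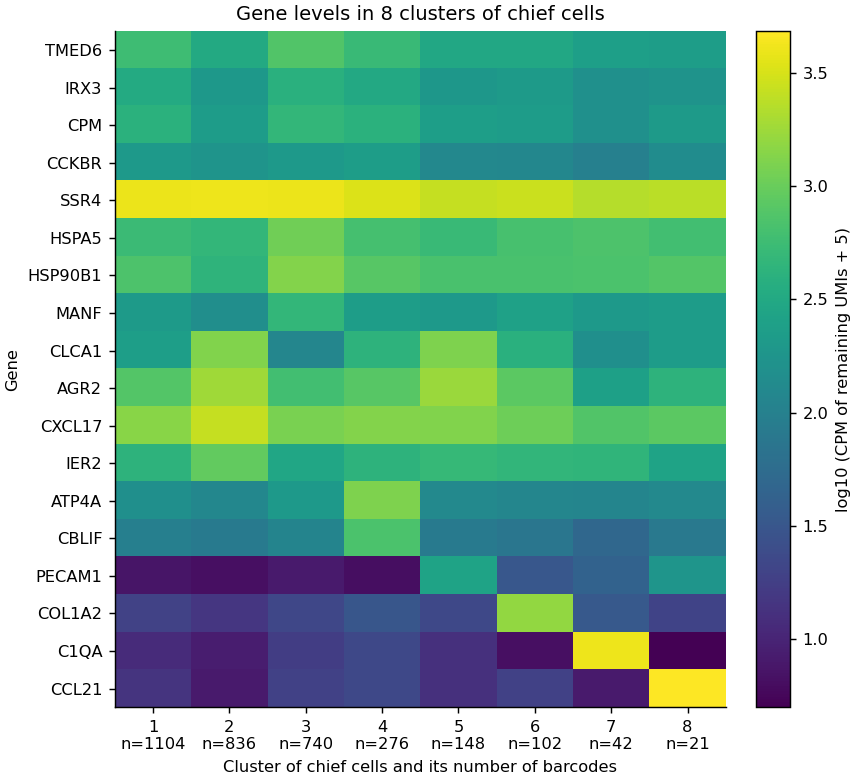
Levels of 18 genes (rows) in the 8 clusters of chief cells (columns, with the number of barcodes), as log10 of CPM of remaining UMIs + 5. *TMED6*, *IRX3*, and *SSR4* are present in all 8 columns. *CLCA1* and *AGR2* are highest in cluster 2 (1300 and 1830 remaining CPM), with cluster 5 close behind (1285 and 1704). *HSPA5* and *HSP90B1* are highest in cluster 3, and *ATP4A*, *PECAM1*, *COL1A2*, *C1QA*, and *CCL21* each in 1 of clusters 4 to 8.

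The leukocyte, stromal, and endothelial markers in the chief cell sum lay mostly in clusters 5 to 8, and those of other gland cells did not. Such genes led clusters 5 to 8, so a fall of these sums on their removal follows from that choice. Cluster 4 had 18.8 CPM of leukocyte, 41.6 CPM of stromal, and 16.7 CPM of endothelial markers, beside 14.5, 33.7, and 18.3 CPM in cluster 2. All 9 leukocyte, 11 stromal, and 8 endothelial markers measured on remaining UMIs were at least 2-fold lower in chief cells, beside 18.3% of all genes, and no marker of the 3 lists was at 0. The summed leukocyte markers were at 95.7 CPM in all chief cells and at 11.1 CPM without clusters 4 to 8, against 3564 CPM in non-epithelial barcodes. Stromal markers went from 169 to 26.8 CPM (8821 CPM in non-epithelial barcodes) and endothelial markers from 90.5 to 14.3 CPM (5370 CPM). Parietal markers stayed at 174 CPM, from 205 CPM, against 27463 CPM in barcodes with *ATP4A*. Mucous neck markers went from 168 to 114 CPM, pit mucous markers from 112 to 109 CPM, and enteroendocrine markers from 29.2 to 31.3 CPM. The parietal sum includes *ATP4A* and the pit mucous sum *TFF1*. The rule capped both genes, and *ATP4A* also picked the barcodes set beside, so these sums are partly fixed by the choice of barcodes. In single chief cells, the 10th to 90th percentile of the summed level ran from 0 to 68.7 CPM for leukocyte markers, 0 to 113 CPM for stromal markers, 0 to 88.9 CPM for endothelial markers, and 36.9 to 396 CPM for parietal markers. Without clusters 4 to 8, 16 genes were at least 2-fold higher and 4637 lower on all UMIs.

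Outside the abomasum, *CYM* was nearly absent. It had 10 or fewer UMIs in 13 of the 14 other libraries and was highest in the NB duodenum, at 5.00 CPM, against 186450 CPM in the NB abomasum. *LYZ3* and *LYZ1* were at most 24.6 and 40.7 CPM, also in the NB duodenum. *PGA5* was highest in the NB liver, at 20.4 CPM, against 21342 CPM in the NB abomasum. *LYZ2* was less restricted, with 220 CPM in the NB duodenum, 212 CPM in the AD jejunum, 127 CPM in the NB cecum, and 120 CPM in the NB jejunum, and 0.0232 CPM in the NB omasum. In the NB duodenum, a large part of it lay in 4 barcodes described below, with 1600, 6479, 1371, and 4278 of the 25868 *LYZ2* UMIs of that library. Other lysozyme genes were high elsewhere. *LYZ* was at 1234 CPM in the NB liver, and *LYSB* reached 975 CPM in the NB ileum, against 20.2 and 0.0680 CPM in the NB abomasum. Of the other leading genes, *TMED6* did not exceed 7.54 CPM and *CCKBR* 0.316 CPM in another library, while *IRX3* was higher in the NB reticulum (118 CPM) and the NB omasum (117 CPM) than in the abomasum library (48.3 CPM). In 13 libraries, 0 barcodes met the rule, which for the NB jejunum allows a share of up to 0.0200% by the same floor, and for the NB salivary gland, the smallest library, up to 0.0958%.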

How the data were processed

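UMIs per gene and barcode of 15 libraries were used. From 3' v3 libraries, the authors obtained their UMI tables with Cell Ranger (version 3.1.0, as in the submitters' processing notes) and the ARS-UCD1.2 assembly. The annotation release is not given in the sources used here. The deposited values are raw counts of UMIs, whole numbers without normalization, and 27270 genes are listed in every library. Viability was checked by the authors, who removed dead cells by a kit where it was low.

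UMIs were summed over chief cells and over all other barcodes, scaled to CPM (per 1000000 UMIs of the group), and compared as log2 ratios with a pseudocount of 5 CPM among genes with at least 10 CPM in either group, called at 2-fold. Summing weights deep cells more. Poisson and binomial (Clopper-Pearson) intervals are exact, at the 95% level, and cover counting error only, as does the floor of 3 counts. *LYZ1* is the gene ENSBTAG00000046511, since a second gene carries the same symbol. Chief cells were clustered with the Leiden method (scanpy 1.11.5, leidenalg 0.10.2, resolution 0.5, 20 neighbors, 30 principal components, 2000 variable genes). Doublets were scored with Scrublet (2 simulated doublets per barcode) and kept, and an alternative removed the highest scores at 0.8% per 1000 barcodes. The script for the sums and ratios was checked on simulated counts with known changes, which is no test of the chief cells. Sums and intervals came from SciPy 1.17.1 and NumPy 2.4.6 (Python 3.11.15, pandas 2.3.3), and figures from matplotlib 3.10.9.

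The chief cell rule, the 27 gene lists (418 symbols, 30 without a row in the files), and the alternatives were chosen with earlier results of these data known. Named genes are the markers of the rule, the genes of the lists, the 20 highest and 20 lowest log2 ratios at 50 CPM or more in either group, and the 5 leading genes of each cluster. No sequence or coordinate is given, because no reference of the files' build was used here.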

Additional observations from a re-analysis of the deposited data

Results flagged for a closer look

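In a library outside the contrast, 4 of the 14633 barcodes of the NB duodenum met the chief cell rule (0.0273%, 95% exact binomial interval 0.00745% to 0.0700%), while 0 did so in the other 13 libraries beside the abomasum. Their barcodes were not among those of the abomasum library. *LYZ2* took 12.7%, 27.8%, 11.5%, and 27.5% of their UMIs, at depths of 11973 to 23346 UMIs. *CYM* took 0.0251% to 1.18% of their UMIs, below the lowest of the 3269 chief cells (1.57%), and *PGA5* took 0.386% to 1.05%. *TFF2*, the trefoil peptide of mucous glands, took 7.43% to 17.3%, against a median of 0.00538% and a highest value of 2.80% in chief cells. *AGR2* took 0.302% to 3.67%. *CCKBR* and *IRX3* had 0 UMIs in all 4, while *ARHGDIG* had 4 to 33 UMIs, 0.0318% to 0.212% of their UMIs. *TMED6* had 3, 13, 0, and 3 UMIs, at most 0.0557% of the UMIs of 1 barcode, against 130 CPM in chief cells, with the 3 barcodes that held it above that level. *LYZ1* took 0.384% to 6.49% and *LYZ3* 0.461% to 2.94%, where chief cells ran from 1.99% to 17.7% and from 0.351% to 10.6%.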

How the results depend on the processing

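No paired analysis was possible because each tissue and stage has 1 library and no result comes from a test. The rule gave 2680 to 3693 chief cells under 8 alternatives and 1960 with a *LYZ2* minimum of 20%. Of the main counts of 16 higher and 4421 lower genes and of 5 higher and 90 lower genes of the 16 functional lists (list genes), those that moved by over 1.5 times were as follows. A *LYZ2* minimum of 20% gave 8 higher genes. Totals without genes above 1% gave 238 higher and 1583 lower, with 35 and 30 list genes. Totals without the 5 enzyme genes, chosen after seeing the data like the removal of clusters 4 to 8, gave 376 and 1144, with 53 and 25 list genes. A pseudocount of 20 CPM gave 1557 lower genes and 51 lower list genes. Resolution 1 gave 13 clusters in place of 8, and the other alternatives gave 6 to 10. Of 111 genes followed through the alternatives, 0 that passed 2-fold changed sign in any alternative. Among those of the 111 that had not passed, 25 changed sign under either scaling without the abundant genes, 17 against barcodes with an *EPCAM* UMI, and 17 with the mean of barcode CPM. Outside the 111, some genes past 2-fold did change sign. From all UMIs to remaining UMIs, *CALR* went from -1.08 to 0.16, *PDIA3* from -1.04 to 0.17, and *JUNB* from -1.16 to 0.07. What limits the data is the single library, whose calf or calves are not given. Further limits are *CYM* and *LYZ2* UMIs in all barcodes, also of other cell types, and lysozyme copies whose reads may be split between them.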

Other observations

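*CYM* at 10% or more of UMIs was not limited to the chief cells. Of 4030 barcodes inside the limits on genes and UMIs with that much *CYM*, 3229 were chief cells and 769 had less than 10% *LYZ2*. Of the 769, 142 had at least 0.3% *ATP4A*, with medians of 13.1% *CYM* and 0.519% *LYZ2*, and their *CBLIF* stood at 12573 remaining CPM. A further 39 had at least 0.2% *TFF1*, with 12.2% *CYM* and 1.15% *LYZ2*. The other 588 had neither, with medians of 15.8% *CYM*, 5.95% *LYZ2*, and 1.62% *PGA5* at a depth of 8010 UMIs. In these 588, *TFF2* was at 7423 remaining CPM, *AGR2* at 4721, and *CLCA1* at 4095, beside 593 and 1131 for *TFF2* and *AGR2* in chief cells. *TMED6* (88.5 remaining CPM) and *IRX3* (78.5) lay below their levels of 479 and 275 in chief cells. These barcodes were picked by their *CYM* share, so the values are a description.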
